A study of Caenorhabditis elegans with 8 samples.

Results

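The genes described here encode the proteins of the mitochondrial ribosome of the nematode Caenorhabditis elegans. They are all entries of the deposited expression table whose gene name starts with mrpl- or mrps- followed by a number, which gave 71 of the 14541 genes tested, 42 mrpl genes named for the large subunit and 29 mrps genes named for the small subunit. Their levels were compared between 4 libraries of wild-type N2 animals and 4 libraries of pals-17(*) mutants. The mutants carry the allele syb3980 (strain ERT994), which places premature stop codons in pals-17, a gene that the study describes as a negative regulator of the intracellular pathogen response. Both strains were raised on bacteria (OP-50 in the labels, OP50-1 in the study's methods) at 20 °C from synchronized L1 larvae, wild-type for 48 h and the slower growing mutants for 72 h, and whole animals pooled from several plates were extracted. The mutant population was of mixed stage around L4, with some older and younger animals. Genotype, growth time and stage therefore differ together and cannot be told apart, and in whole animals fewer cells of a type cannot be told apart from less RNA per cell.

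Mitochondria keep a small genome that encodes a few core subunits of the respiratory chain and ATP synthase, and the mitochondrial ribosome is the machine that translates their mRNAs. Its RNAs come from the mitochondrial genome, while all of its proteins are encoded in the nucleus, made on cytosolic ribosomes and imported. In C. elegans, knockdown of mitochondrial ribosomal protein genes such as mrps-5 is known to unbalance nuclear and mitochondrial respiratory subunits, to induce the mitochondrial unfolded protein response and to lengthen life.

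The 8 libraries held 17871320 to 23378799 reads on genes. The targeted gene pals-17 was at 14.3 to 19.3 reads per 1000000 scaled reads (CPM) in wild-type and at 4.07 to 4.60 CPM in the mutants, and it was lower by limma (log2 fold change -1.86 ± 0.114 SE, adjusted p = 1.72e-07). Tissue and stage markers differed between the strains as well. The 11 germline and oocyte markers were all higher in the mutants, with 0.00465 to 0.0292% of reads in wild-type libraries against 0.414 to 0.497% in pals-17(*), while all 7 molting cuticle genes were lower (0.481 to 0.555% against 0.108 to 0.128%). All 6 sperm markers were higher, all 7 intestine markers were lower (1.51 to 1.71% against 0.616 to 0.741%), and of 6 muscle markers 2 were higher and 4 lower. The strains were apart in only 1 of the 6 muscle markers, and the shares of that list overlapped (0.388 to 0.609% against 0.326 to 0.591%). With libraries scaled to read totals 3 muscle markers were higher and none lower. No marker of these 5 lists was at 0 in any library, and the part of these differences in the values below was not tested.

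On the deposited scale, mRNAs for mitochondrial ribosomal proteins were lower in pals-17(*) mutants almost throughout the set. Of the 71 genes, 70 were lower at an adjusted p-value under 0.05 by limma (Benjamini-Hochberg over all genes), none was higher, and 1, mrps-11, did not pass. All 71 log2 fold changes were negative, so none was higher at an unadjusted p either, and voom weights on recovered reads also gave 0 higher. By the same rule 41.2% of all genes were lower and 42.5% were higher. The median log2 fold change of the set was -0.77, a decrease of 41.5%, against a median of 0.0041 over all genes tested. In 69 of the 71 genes all 4 mutant libraries lay below all 4 wild-type libraries, which held for 39.0% of all genes. The decreases were moderate. None fell by more than 2 on the log2 scale, where 7.48% of all genes did. A fall of more than 1 was found in 13 of the 71 genes, a share near the 20.0% of all genes.

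This count rests on how the libraries were scaled to each other. The authors' scaling treats the mutant libraries as 1.20 to 1.26 times their read totals and the wild-type libraries as 0.793 to 0.821 times theirs. When each library was instead scaled to its own read total, 27 of the 71 genes were lower and 6 were higher by limma, and the median moved to -0.18, while the median of all genes moved to 0.60 and 23.3% of all genes were lower and 60.1% higher. With median centring all 71 genes were lower (median -1.05, with 50.0% of all genes lower and 36.1% higher), and with quantile normalization 67 were (median -0.72, with 45.5% of all genes lower and 39.1% higher). Measured against the median of all genes, the set lay 0.78 lower on the log2 scale under the deposited scaling, which read totals and median centring cannot change since they shift every gene of a library alike, and 0.60 lower under quantile normalization. Among the 8728 genes whose mean log2 level exceeded 3, a range that holds all 71 members, the median was -0.27, and 51.9% of genes were lower and 32.3% higher.

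**Figure D1:**
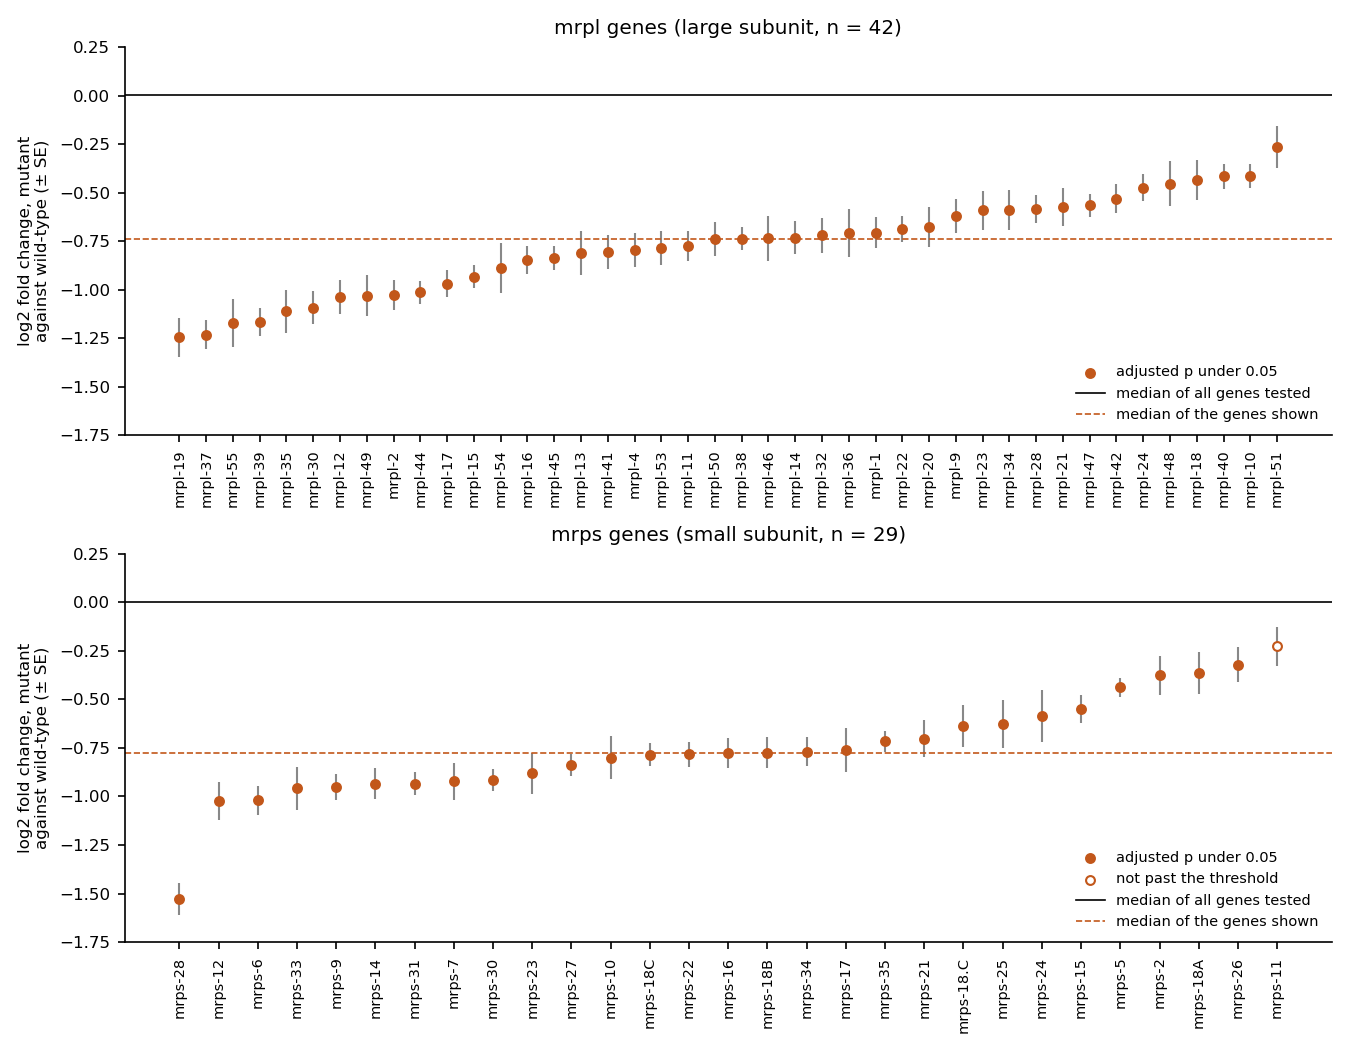
Log2 fold change (vertical axis, ± SE) of each of the 42 mrpl genes and 29 mrps genes in 4 pals-17(*) libraries against 4 wild-type libraries on the deposited scale; filled points passed an adjusted p of 0.05 by limma. All points lie below the median of all genes (solid line), from -1.53 for mrps-28 to -0.23 for mrps-11, the only open point; scaled to read totals, every point moves up by about 0.6 and 52 remain below 0.

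The share of each library's reads that fell on the set does not depend on the scaling between libraries. The 71 genes together held 0.308%, 0.305%, 0.310% and 0.333% of a library's reads in wild-type replicates 1 to 4 and 0.252%, 0.283%, 0.301% and 0.293% in pals-17(*) replicates 1 to 4. The strains did not overlap, but the highest mutant share (0.301%) lay just under the lowest wild-type share (0.305%). The means were 0.314 ± 0.0128% and 0.282 ± 0.0215% (SD, n = 4 each), so the mutant share was 0.899 times that of wild-type. Both subunits took part, with mutant shares of 0.892 times wild-type for the mrpl genes and 0.909 times for the mrps genes.

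Both subunits were lower. All 42 mrpl genes were lower, with a median log2 fold change of -0.74, and 28 of 29 mrps genes were lower, with a median of -0.78. The difference between the medians was 0.038, with no test, and with quantile normalization it was -0.063, in the other direction. The mrpl genes took 1.20 ± 0.0158 times as many reads as the mrps genes in wild-type and 1.18 ± 0.0212 times as many in the mutants (SD, n = 4 each), a difference close to the spread between libraries. Genes were also divided by number, since mrpl numbers up to 36 and mrps numbers up to 21 follow the bacterial proteins while most higher numbers name proteins gained in mitochondria. The 42 genes with bacterial numbers had a median of -0.75 and the 29 with higher numbers a median of -0.79, with 41 and 29 genes lower. The split is by number alone, and a few higher numbers, MRPS24, MRPS28 and MRPL47 among them in humans, correspond to bacterial proteins too.

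Within the set the fold changes were spread more widely than their errors. The SD of the 71 log2 fold changes was 0.25, while the SE of single genes ranged from 0.047 to 0.13. The 6 largest decreases among genes whose strains did not overlap belonged to mrps-28, mrpl-19, mrpl-37, mrpl-55, mrpl-39 and mrpl-35. Of these 6, 5 are large subunit genes, as are 42 of all 71 members.

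The gene mrps-28 (WBGene00012830; WBcel235 chromosome V, 19644239 to 19645676, plus strand, 3 exon blocks) encodes a small subunit protein and had the largest decrease of the set. In wild-type replicates 1 to 4 its level was 41.4, 39.4, 43.4 and 45.7 CPM, and in the mutants it was 13.1, 15.2, 15.7 and 15.03 CPM. The strains stood far apart, with 39.4 CPM in the lowest wild-type library and 15.7 CPM in the highest mutant library. The log2 fold change was -1.53 ± 0.082 SE (limma, adjusted p = 7.19e-08), 2.88-fold lower in the mutants, and it was still -0.93 when libraries were scaled to read totals.

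The next 5 were large subunit genes with decreases of similar size. The gene mrpl-19 was at 55.1, 50.9, 58.4 and 63.8 CPM in wild-type and at 21.4, 22.0, 26.2 and 26.9 CPM in pals-17(*) (-1.24 ± 0.10 SE). The gene mrpl-37, whose human counterpart is specific to the mitochondrial ribosome, was at 49.1, 48.0, 48.7 and 47.4 CPM against 22.6, 21.7, 19.1 and 19.0 CPM (-1.23 ± 0.075 SE). In neither gene did any mutant library come near the wild-type range. The decreases of mrpl-55 (-1.17 ± 0.12 SE), mrpl-39 (-1.17 ± 0.070 SE) and mrpl-35 (-1.11 ± 0.11 SE) were alike within their errors, and the 5 genes had adjusted p-values by limma of 1.57e-07 to 8.49e-06. These 5 genes were lower with read totals as well, at -0.65 to -0.52. An exon of another gene on the other strand overlaps mrpl-19 (gcy-28), mrpl-39 (Y32G9B.1) and mrpl-35 (hmit-1.3) in the annotation, and whether the counting used the strand is not given in the sources used here, so reads of the partners may be included.

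At the other end, mrps-11 was the gene that did not pass. The gene (WBGene00012244; WBcel235 chromosome V, 12493239 to 12494622, minus strand, 2 exon blocks) encodes a protein of the small subunit platform. It was at 45.9, 47.2, 51.0 and 57.3 CPM in wild-type and at 36.5, 43.9, 47.7 and 44.3 CPM in the mutants. The strains overlapped, since mutant replicate 3 lay above wild-type replicates 1 and 2. The log2 fold change was -0.23 ± 0.10 SE (limma, adjusted p = 0.0575). The gene passed at -0.28 (adjusted p = 0.0340) without pals-17(*) replicate 3 and at -0.27 (adjusted p = 0.0436) without wild-type replicate 1, and it was higher in the mutants with read totals (0.37, adjusted p = 0.00745). Its exons overlap an exon of inx-11 on the other strand. The other gene whose strains overlapped was mrpl-51, named here after its values were seen, at 45.7 to 54.1 CPM in wild-type and 34.1 to 47.5 CPM in pals-17(*) (-0.27 ± 0.11 SE, limma adjusted p = 0.0424). It was higher in the mutants with read totals (0.33, adjusted p = 0.0194) and did not pass with quantile normalization (-0.16, adjusted p = 0.210).

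Small decreases with strains apart were found in mrpl-18 (-0.44), mrpl-40 (-0.42), mrpl-10 (-0.42), mrps-2 (-0.38), mrps-18A (-0.36) and mrps-26 (-0.32), with adjusted p-values by limma of 0.000131 to 0.0106. The gene mrps-26 was at 65.0, 63.4, 63.3 and 66.1 CPM in wild-type, a narrow range, and at 43.6, 49.6, 58.7 and 55.7 CPM in the mutants. Its mutant libraries were thus spread far more widely than the wild-type libraries, and the highest of them came near the wild-type range. With quantile normalization mrps-26 did not pass (-0.14, adjusted p = 0.214). In these 6 genes the direction was positive with read totals (0.16 to 0.27), where mrpl-40, mrpl-10 and mrps-26 were called higher. The human counterpart of mrps-18A sits in the large subunit despite its name, so it is counted with the small subunit here by name only, and its exons overlap one of iglr-2 on the same strand.

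The gene mrps-5 (WBGene00008452; WBcel235 chromosome V, 12563487 to 12565801, plus strand, 6 exon blocks), the member best known from lifespan work, had one of the smaller decreases and the smallest error. It was at 106.7, 109.5, 108.9 and 107.3 CPM in wild-type and at 78.5 to 80.7 CPM in the 4 pals-17(*) libraries. The libraries of each strain agreed closely, at 108 ± 1.35 and 79.8 ± 0.967 CPM (SD, n = 4 each), and the strains were well apart. The log2 fold change was -0.44 ± 0.047 SE (limma, adjusted p = 1.07e-05). Scaled to read totals it was higher in the mutants (0.16, adjusted p = 0.0124), and with quantile normalization it did not pass (-0.10, adjusted p = 0.1002), so its direction rests on the scaling.

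**Figure D2:**
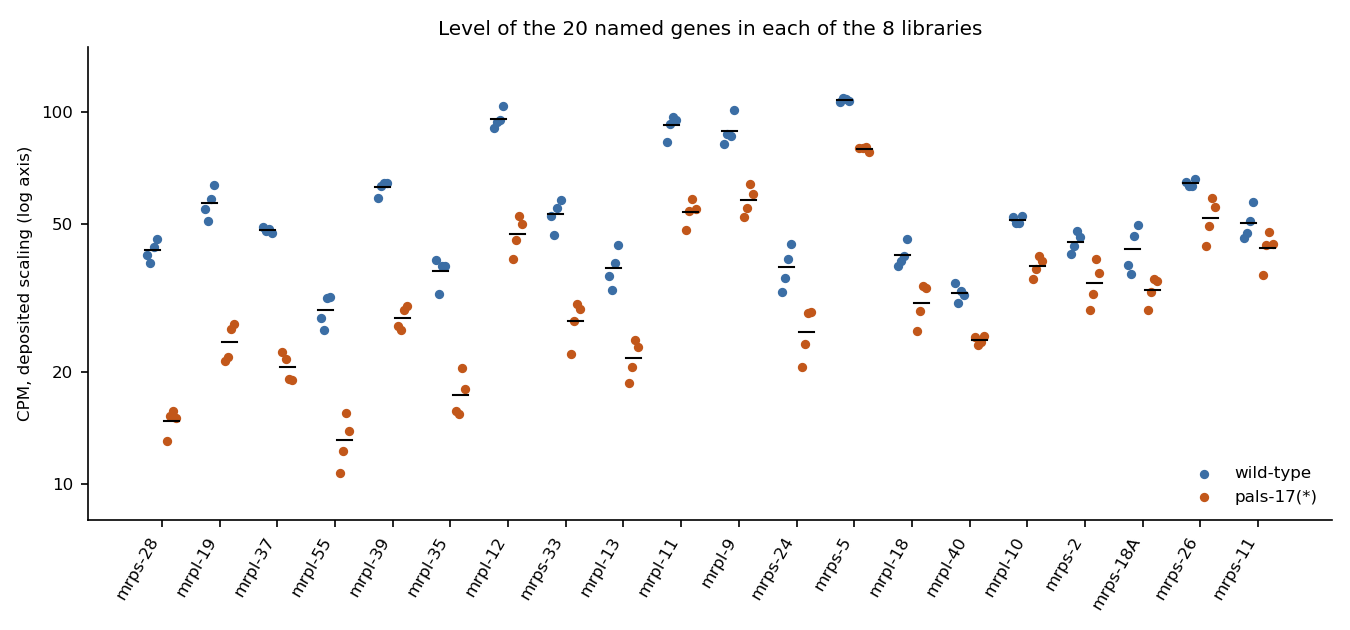
Level of 20 genes in CPM on the deposited scale (vertical log axis) in 4 wild-type (blue) and 4 pals-17(*) libraries (orange), in replicate order from left to right, ordered by fold change; black lines are strain means. In all but mrps-11, at the right, the 4 mutant libraries lie below the 4 wild-type libraries; with read totals the direction of mrps-24, mrps-5 and the genes to its right turns.

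Levels were compared between genes per kilobase of exon. In wild-type they ran from 21.05 CPM per kilobase for mrps-31 to 147 for mrpl-12, with a median of 65.1 and quartiles at 52.2 and 72.7. The set was thus even, with the upper quartile 1.39 times the lower. In pals-17(*) the range was 11.02 to 78.4 CPM per kilobase with a median of 37.5, and the order of the genes was largely kept (Spearman's rho 0.83 over 71 genes, which share libraries and length). On the same scale the 81 cytosolic ribosomal protein genes had a wild-type median of 3545 CPM per kilobase and the 40 nuclear respiratory chain genes a median of 307.

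The highest levels per kilobase belonged to mrpl-12, mrpl-11, mrps-33 and mrpl-9. The gene mrpl-12 (WBGene00012361; WBcel235 chromosome III, 10707761 to 10708521, plus strand, 3 exon blocks) encodes the counterpart of the bacterial stalk protein that recruits translation factors. It was at 90.9, 94.1, 95.2 and 104.2 CPM in wild-type and at 40.2, 45.2, 52.5 and 50.03 CPM in the mutants (-1.04 ± 0.089 SE, limma adjusted p = 1.95e-06). The mutants were thus 2.05-fold lower with no overlap, although an exon of W09D10.5 on the other strand overlaps the gene. The gene mrpl-11, for the protein at the base of the same stalk, was at 83.2, 93.0, 97.4 and 95.4 CPM against 48.2, 54.2, 58.4 and 55.0 CPM (-0.78 ± 0.077 SE), close to the median of the set. The decreases of mrps-33 (-0.96 ± 0.11 SE) and mrpl-9 (-0.62 ± 0.087 SE) also passed, and with read totals mrpl-11 and mrpl-9 did not (-0.18 and -0.024). Across the 71 genes the fold change had no relation to exon length (Spearman's rho 0.0066) and a weak one to the mean log2 level (0.14).

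The members also deviated together from library to library. Among the mutants, replicate 1 was the lowest for 48 of 71 genes and replicate 3 the highest for 45. Among wild-type libraries, replicate 4 was the highest for 45 genes, and replicates 1 and 2 were the lowest for 31 and 30. The genes with the largest wild-type SD on the log2 scale, mrps-18A, mrps-24 and mrpl-13, were each highest in wild-type replicate 4 and lowest among the mutants in replicate 1, mrps-24 for instance with 32.8, 35.7, 40.2 and 44.3 CPM in wild-type and 20.6, 23.7, 28.9 and 29.1 CPM in pals-17(*). For mrps-24 the strains still did not overlap (-0.59 ± 0.13 SE, limma adjusted p = 0.00204), nor for mrpl-13 (-0.81 ± 0.11 SE, adjusted p = 6.77e-05), whereas both missed the threshold with read totals (0.010 and -0.22).

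Exon length moved with these deviations. The 35 members under the median exon length of 763 bases lay at a median of -0.19 in mutant replicate 1 and 0.15 in mutant replicate 3, and the 36 longer members at -0.11 and 0.099. Among all well expressed genes (mean log2 above 3), those with exons under 763 bases moved the same way (-0.15 and 0.12), while the longer ones did not (0.043 and -0.011). The decrease itself was alike in short and long members on the deposited scale (medians -0.78 and -0.75, chosen after seeing the data). With quantile normalization the medians were further apart, at -0.81 for short and -0.60 for long members. Wild-type replicate 4, highest for most members, also held the smallest share of germline and oocyte markers, 0.00465% of its reads against 0.0152 to 0.0292% in the other wild-type libraries, and their part in the member levels was not tested.

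**Figure D3:**
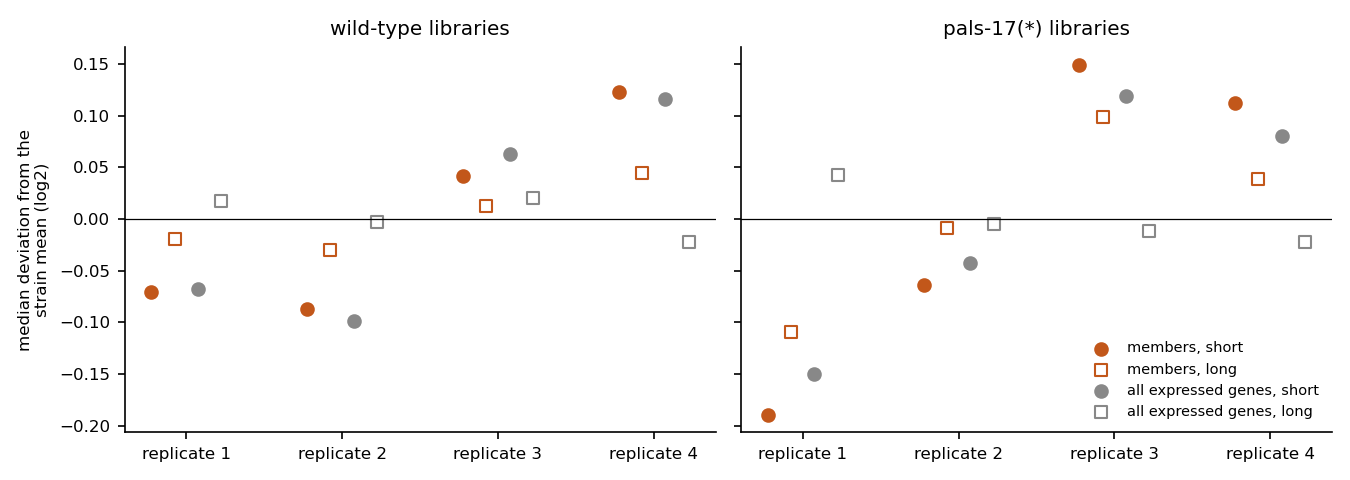
Median deviation of each library from its strain mean (log2, vertical axis) for short (circles, exons under 763 bases) and long (squares) members in orange and for all well expressed genes (mean log2 above 3) in gray. Members are lowest in pals-17(*) replicate 1 and highest in pals-17(*) replicate 3 and wild-type replicate 4, short members more so than long ones, and short genes at large follow the same order.

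The remaining parts of mitochondrial translation were read from lists made by gene name. Of 8 measured translation and assembly factors, 6 were lower and 2 higher, with a median of -0.78. The most abundant, tufm-1, which encodes mitochondrial EF-Tu, was at 437 ± 26.8 CPM in wild-type and 257 ± 16.6 CPM in the mutants (SD, n = 4 each; log2 fold change -0.77 ± 0.068 SE), and gfm-1, for the elongation factor EF-G, fell from 206 ± 15.5 to 102 ± 12.9 CPM (-1.02 ± 0.095 SE). EF-Ts (tsfm-1) had the largest decrease of the list, -1.28 ± 0.056 SE, and dap-3 had -0.86 ± 0.058 SE. The human counterpart of dap-3 is a small subunit protein, but the worm gene carries no mrps name and is therefore no member. Adjusted p-values by limma were 2.07e-08 to 3.58e-06 for tufm-1, gfm-1, tsfm-1 and dap-3. The 2 that were higher were eral-1 (0.27) and tfbm-1 (0.71), whose human counterparts act on mitochondrial ribosomal RNA as an assembly factor and a methyltransferase. With median centring eral-1 no longer passed (-0.0037), and with quantile normalization neither did (0.22 and 0.078), nor did tufm-1 (0.047).

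Mitochondrial aminoacyl-tRNA synthetases, which charge the tRNAs used by this ribosome, had a smaller shift. Of 11 genes 7 were lower, 2 higher and 2 neither, with a median of -0.28. The most abundant were iars-2 (-0.35 ± 0.058 SE, but -0.013 with quantile normalization and called higher, 0.25, with read totals) and vars-1 (-0.50 ± 0.055 SE, but 0.098 and not passing with read totals). With read totals 8 of the 11 were higher and 1 lower (median 0.31), where 60.1% of all genes were higher and 23.3% lower. Measured against the median of all genes, the list stood at -0.29 under the deposited scaling and with read totals alike. With quantile normalization it stood at -0.071. Of 5 genes for copying and transcribing mitochondrial DNA, 2 were lower, 2 higher and 1 neither (median 0.21). These counts are near the shares of all genes, 41.2% lower and 42.5% higher. The lower ones were mtss-1, a single-strand binding protein (-0.61 ± 0.077 SE), and rpom-1, the mitochondrial RNA polymerase (-0.35 ± 0.092 SE). Both calls ended with read totals (-0.018 and 0.24), where none of the 5 was lower and 4 were higher, beside 60.1% of all genes higher. The polymerase gene polg-1 was higher (0.33 ± 0.13 SE), but not with median centring or quantile normalization (0.051 and 0.047). The gene hmg-5, the counterpart of the packaging factor TFAM, was higher at 38.4 ± 5.17 CPM in the mutants against 12.8 ± 0.699 CPM in wild-type (1.57 ± 0.10 SE, limma adjusted p = 2.83e-07).

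The mRNAs that this ribosome translates had a larger median decrease than its proteins on the deposited scale. All 11 measured mtDNA-encoded protein mRNAs were lower (median -1.203), and 10 of the 11 also passed with read totals. The cytochrome oxidase subunit ctc-1 was at 3166 ± 219.7 CPM in wild-type and 1018 ± 109.7 CPM in pals-17(*) (-1.64 ± 0.091 SE), and cytochrome b, ctb-1, had -1.31 ± 0.10 SE. These values come from libraries prepared with an mRNA kit, so they are levels of what that kit captured. Of 40 nuclear genes for the respiratory chain and ATP synthase, 37 were lower and 3 higher, with a median of -1.09. The most abundant, atp-2 (-1.13 ± 0.076 SE) and atp-1 (-1.23 ± 0.078 SE), encode subunits of the ATP synthase head. The 3 that were higher, asb-1, nduf-2.2 and ucr-2.3, each have at least one paralog in the list that was lower. With quantile normalization the order of the medians turned, to -0.46 for the mtDNA-encoded and -0.41 for the nuclear genes against -0.72 for the set, so how far these lists fell relative to each other rests on the scaling.

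Within each library, reads on the set were set against those on the genes with which it works. Per 100 reads on nuclear respiratory chain genes, 17.4 ± 0.703 reads fell on the set in wild-type and 22.7 ± 1.98 in the mutants (SD, n = 4 each), with no overlap between the strains (16.9 to 18.4 against 19.9 to 24.4). Per 100 reads on cytosolic ribosomal protein genes the numbers were 2.39 ± 0.0653 and 2.41 ± 0.116, which overlapped and differed by less than 1 SD. Of the 81 cytosolic ribosomal protein genes 77 were lower and 2 higher, with a median of -0.74, close to the -0.77 of the mitochondrial set. With quantile normalization, however, the cytosolic median was 0.10 and the mitochondrial one -0.72, so the likeness of both sets rests on scaling by a factor per library.

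**Figure D4:**
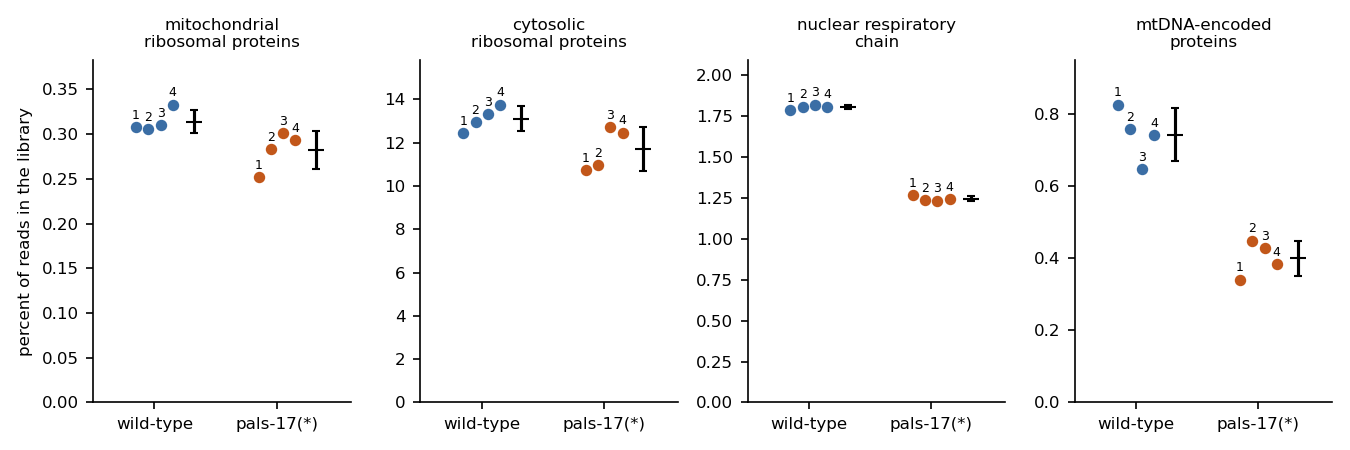
Percent of the reads of each library (vertical axes from 0, one scale per panel) on 71 mitochondrial ribosomal protein genes, 81 cytosolic ribosomal protein genes, 40 nuclear respiratory chain genes and 11 mtDNA-encoded genes; points are libraries, numbered by replicate, and bars the mean ± SD of 4. The mitochondrial ribosomal share in the mutants is 0.899 times that of wild-type, a smaller step than that of the respiratory chain (0.689 times wild-type) or the mtDNA-encoded genes (0.538 times wild-type).

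**Figure D5:**
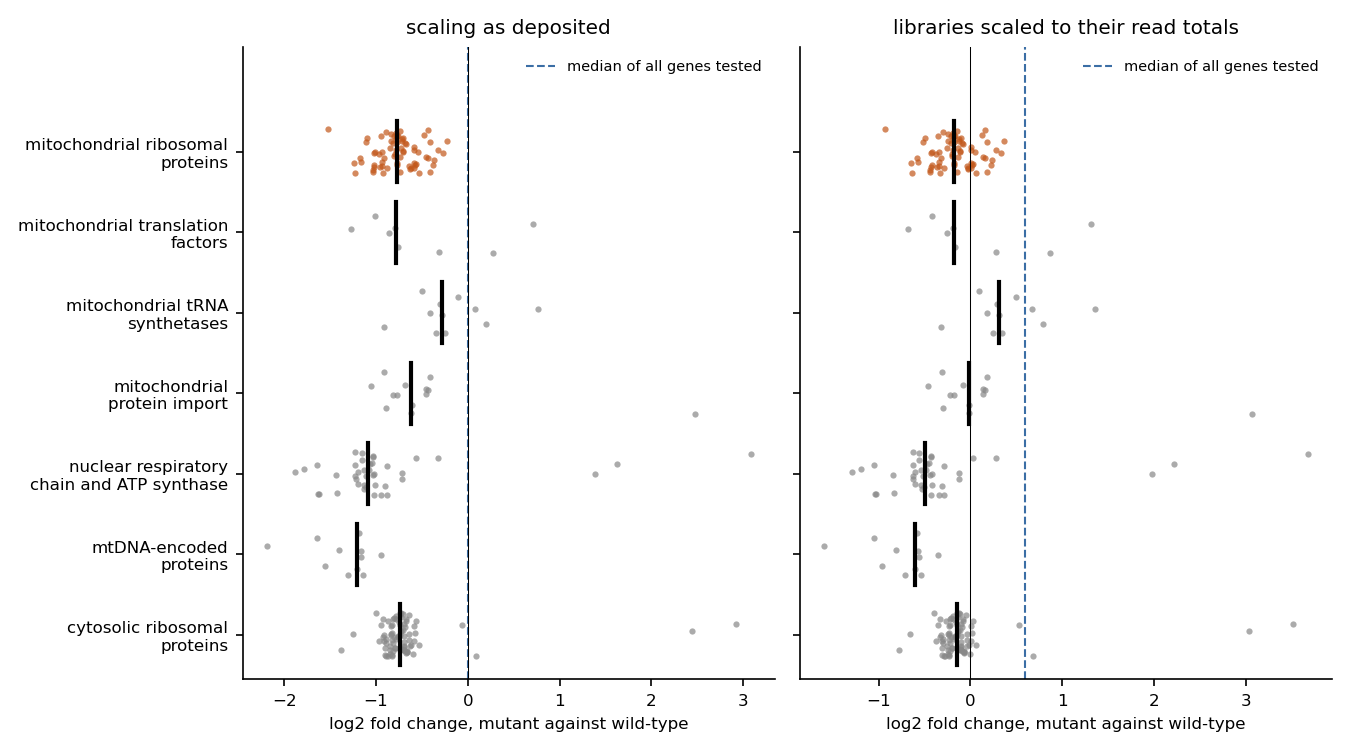
Log2 fold change of every gene (points) in 7 lists on the deposited scale (left) and with libraries scaled to read totals (right); black bars are list medians and the dashed line the median of all genes, 0.0041 and 0.60. The mitochondrial ribosomal proteins, in orange, have medians of -0.77 and -0.18, beside the translation factors (-0.78 and -0.18) and to the right of the respiratory chain (-1.09 and -0.50).

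Genes that serve other mitochondrial functions were mostly lower. Of 13 genes for protein import, through which all members reach their place of work, 12 were lower and 1 higher (median -0.61), with tomm-40, the pore of the outer membrane, at -0.61 ± 0.059 SE and timm-17B.1 of the inner membrane at -0.45 ± 0.059 SE. With read totals the median of this list was -0.018, and neither of these 2 genes passed (-0.0098 and 0.14). With quantile normalization tomm-40 did not pass (0.017) and timm-17B.1 was called higher (0.17). Of 11 genes of the mitochondrial stress response and proteases, 8 were lower and 1 higher (median -0.42, and 0.17 with read totals). The chaperone hsp-6, a usual readout of the mitochondrial unfolded protein response, was at 765 ± 113 CPM in wild-type and 748 ± 119.8 CPM in the mutants, with overlapping strains (-0.034 ± 0.13 SE, limma adjusted p = 0.820, but 0.56 with read totals, adjusted p = 0.0026). Its partner hsp-60 fell from 525 ± 49.6 to 255 ± 25.4 CPM (-1.04 ± 0.091 SE, adjusted p = 2.17e-06), and atfs-1, for the transcription factor of this response, was higher (0.38 ± 0.063 SE, adjusted p = 0.000261) but did not pass with median centring (0.099, adjusted p = 0.196).

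The members were placed on the WBcel235 annotation. None of the 71 lies on the X chromosome, which carries 13.55% of the genes tested, while chromosome III carries 22 of them (31.0% against 15.6% of all genes), I carries 15, II 13, IV 11 and V 10. All members on each of I, II, III and IV were lower, and 9 of 10 on V, with medians from -0.81 on I and -0.78 on III to -0.71 on IV. Of all X-linked genes 58.7% were lower and of all autosomal genes 38.4%.

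Many C. elegans genes are transcribed in operons, in which a promoter drives several genes on one strand with short gaps between them. A protein-coding neighbor on the same strand within 500 bases was found for 43 of the 71 members (60.6%), against 34.5% of 13933 protein-coding genes in the table, and 35 of the 52 member and neighbor pairs were 80 to 120 bases apart. The 51 neighbors that are no members did not share the direction of the set, since 21 were lower, 18 higher and 12 neither, with a median of -0.032. The share lower among them, 41.2%, was that of all genes. Next to mrps-18C (-0.78), fsn-1 began 100 bases downstream and was higher (1.92), and 428 bases downstream of mrps-28 (-1.53), Y43F8C.9 was higher (3.96). The members mrps-2 and mrpl-4 follow each other on chromosome V with a gap of 105 bases and had -0.38 ± 0.10 and -0.80 ± 0.087 (SE), and dap-3 lies 105 bases upstream of mrps-22, with -0.86 and -0.78. Of the 71 members, 50 have exons free of overlap with any other gene, and all 50 were lower (median -0.78).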

How the data were processed

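RNA from whole animals was sequenced from TruSeq Stranded mRNA libraries, 4 per strain. Reads of both ends were aligned by the authors with Rsubread (genome WS235), counted with featureCounts and normalized with limma-voom after low genes had been removed. The deposited values are log2 counts per 1000000 reads (log2 CPM), in which 0.5 was added to the reads and library sizes were scaled by the authors with a method that is not given in the sources used here. Whole reads could be recovered for 100% of the values (tolerance 0.01 reads, largest distance 0.000673), and CPM here are those reads over the deposited scaled library size. One unnamed entry (0.00417% of reads) was left out. Every mrpl and mrps gene of the Ensembl release 115 annotation (WBcel235) is in the table, and mrpl-14 of the table has another name in the annotation; gene positions and exon lengths come from that annotation, which matched 99.9% of the genes and can differ from the gene models the authors counted on.

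limma 3.58.1 (R 4.3.3; lmFit, eBayes with an intensity trend) was fitted to the deposited log2 values of all 14541 genes with strain as the only term, 2-sided, with Benjamini-Hochberg adjustment. A fold change is mutant against wild-type, with its SE, and since 0.5 was added to the reads, it understates changes of genes with few reads. The members had 983 to 8221 reads over the 4 libraries of a strain. The labels number the replicates without saying whether they were separate cultures, so p-values measure only the spread between these samples, which may be technical. On simulated data of the same 14541 genes, the fit called 80 of 100 genes changed by 0.5 and 100 of 100 changed by 1 on the log2 scale, with 12 unchanged genes called. The simulation gave every gene the same spread beyond counting and used known library sizes. It changed few genes, none of them at low levels, as many up as down. It therefore cannot speak to the scaling, and the rates in the real data may differ. Alternatives were voom weights on recovered reads, no trend, robust eBayes, a replicate block, 1 CPM added before the log, filters at 1 CPM in at least 4 libraries or a mean log2 above 3, scaling to read totals, median centring, quantile normalization, stricter thresholds and leaving out each library.

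The members and lists were chosen with earlier results of these data known, so counts and medians are given beside those of all genes, and no test was made over a list. Named members are the 6 largest and 6 smallest changes past the threshold with strains apart, the 4 highest per kilobase, the 3 with the largest wild-type SD, mrps-5 and every member not past the threshold. In other mitochondrial lists the 2 with the highest mean are named, and other genes were picked after their values were seen. No sequence is shown.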

Additional observations from a re-analysis of the deposited data

Results flagged for a closer look

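In wild-type replicate 4 the share of reads on the 71 mitochondrial ribosomal protein genes stood above the other 3 libraries, at 0.333% against 0.3078%, 0.3051% and 0.3099%, and its gap to the nearest library was 0.83 of the range of the 4. For the mrpl genes alone it was at 0.183% against 0.1669%, 0.1669% and 0.1685%, a gap of 0.904 of the range. Both gaps were above Dixon's 95% critical value for 4 samples, and these were 2 of the 52 groups of 4 libraries compared in this way, of which chance flags about 1 in 20. Without that library 69 of the 71 genes were lower, with a median log2 fold change of -0.73.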

How the results depend on the processing

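Of 360 values for 20 named genes under 18 alternatives, 342 kept their direction and their side of the threshold. Scaling to read totals changed most: 27 genes were lower and 6 higher, the median was -0.18, and the direction turned for mrpl-18 (0.16), mrpl-40 (0.18), mrpl-10 (0.18), mrps-2 (0.22), mrps-18A (0.23), mrps-26 (0.27), mrps-24 (0.010), mrps-5 (0.16) and mrps-11 (0.37), and also for mrpl-51 (0.33), which is not among the 20. With quantile normalization mrps-5, mrps-26 and mrpl-51 did not pass. Scaling to read totals, by its construction, moves every gene up by about 0.6. Median centring gave a median of -1.05. With quantile normalization the large minus small subunit difference was -0.063, and the cause was not tested. Requiring a log2 fold change past 1 or 2 left 13 and 0 genes lower. Without the 100 most abundant genes the set took 0.424% of wild-type and 0.359% of mutant reads. Leaving out each library in turn gave 69 to 71 genes lower and medians of -0.81 to -0.73. The remaining alternatives left 67 to 71 genes lower. With the replicate number as a block 71 were lower by limma, mrps-11 included (adjusted p = 0.0233), but whether equal numbers pair the samples is not stated. Over all genes, same-numbered libraries deviated with correlations of 0.073, 0.062, 0.0076 and -0.017, and not every library correlated best with its own number. The members had median deviations of -0.050, -0.056, 0.024 and 0.074 in wild-type replicates 1 to 4. In the mutants these were -0.15, -0.049, 0.12 and 0.085, with the same sign at each number. Pairing therefore cannot be decided from these values. Depth did not limit these genes, each of which had at least 983 reads in a strain, but whether the authors' scaling is the right one cannot be decided from these files.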
